A study of Mus musculus with 8 samples.

Results

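The 38 genes of glycolysis, gluconeogenesis and the pentose phosphate pathway were compared in the intestinal epithelium of lactating mice with and without Rank, as 38 of the 54532 gene rows in the count table. They were taken by name, from a list by pathway whose rule uses no measured value. The list was chosen with earlier results of these data known. A second row that carries the symbol Aldoa, with 3 counts in all 8 libraries together, was not used. All samples were intestinal epithelial cells of female mice on a C57BL/6J background at lactation day 5, mated with C57BL/6J males, and each sample gave 1 library. The 4 WT samples came from littermates with intact Rank. The 4 Rank-knockout samples carried floxed Rank alleles deleted by a Cre under the Villin1 promoter, which is active throughout the intestinal epithelium, so that by design Rank is lost in the epithelium and kept in other cells of the mouse. Rank is the receptor activator of NF-κB, and its gene symbol is Tnfrsf11a. For its mice in general the study states littermates matched for age and a single broad age range, and no age was found for these samples. The cells were released from minced tissue and strained without sorting. The comparison asks how the genes of central carbohydrate metabolism differ in an epithelium that lacks Rank during lactation, when the gut of the mother has grown.

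Glycolysis splits glucose into pyruvate in the cytosol. Pyruvate is either reduced to lactate or carried into mitochondria, and gluconeogenesis runs back from pyruvate to glucose with its own enzymes at the irreversible steps. The pentose phosphate pathway takes glucose 6-phosphate from the first step of glycolysis, makes NADPH in its oxidative arm and supplies ribose 5-phosphate for nucleotides. Dividing cells of the intestinal crypt and absorbing cells of the villus use these routes differently, and the small intestine is also an organ with gluconeogenic enzymes.

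The libraries read the 3′ end of polyadenylated transcripts, so a long and a short transcript give about 1 tag each. Levels are given as CPM, the tags of a gene relative to the TMM-scaled total of the library, and were not divided by gene length. Differences are log2 fold changes, Rank-knockout minus WT, with their standard error (SE). Adjusted p values come from edgeR's quasi-likelihood test with Benjamini-Hochberg adjustment over all 9855 tested genes, and a gene rose or fell where the adjusted p was under 0.05. Libraries held between 1530781 and 4335653 counts, and the median was 1609942 for WT but 3070751 for Rank-knockout. The labels number the samples and name no batch, so the p values cover the spread between these samples. The deleted gene, Tnfrsf11a, had 76.8, 49.3, 41.3 and 73.3 CPM in WT replicates 1 to 4, and 27.0, 41.7, 35.2 and 46.8 CPM in Rank-knockout replicates 1 to 4. Its level fell by 0.67 on the log2 scale (SE 0.22, adjusted p = 0.0322) with 2 Rank-knockout libraries inside the WT range. Tags from the 3′ end check a floxed deletion only where it removes that end, which the sources used here do not state.

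Of the 38 members, 32 had enough counts to test. Of these 32, 4 rose (Hk2, Pck2, Pgls and Rpia), 6 fell (Pfkp, Pfkfb3, Pfkfb4, Pkm, Slc16a3 and Pcx) and 22 did not pass the threshold. The members called made up 31.2% of those tested, against 30.4% of all tested genes. The share that rose was 12.5%, against 15.8% of all tested genes, and the share that fell was 18.8%, against 14.6%. The CPM values of the genotypes did not overlap for 9 tested members, or 28.1%, against 28.8% of all tested genes. The median log2 fold change was -0.02 over the tested members and 0.02 over all tested genes. The members were thus called about as often as the rest of the table. The split of 4 higher and 6 lower members became 8 and 4 when libraries were scaled by their totals, and 7 and 4 when the 50 most abundant genes were left out of the library sizes. These scalings moved the median of all genes by 0.20 and 0.13 on the log2 scale. Each of the 10 called members kept its direction under both.

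Markers of crypt and villus moved with genotype beside these results. All 12 villus enterocyte markers fell, with a median of -1.17 on the log2 scale, and their summed level ran from 30500 to 42100 CPM in WT against 15800 to 20500 CPM in Rank-knockout. Apoa4 was the most abundant of them, with 8820 ± 691 and 3940 ± 896 CPM (SD, n = 4 each). All 16 replication and cell cycle markers rose, with a median of 1.23, and their sum ran from 619 to 961 CPM in WT against 1530 to 2450 CPM in Rank-knockout. In bulk tissue, fewer cells of a type and less RNA per cell cannot be told apart, and the part of these shifts in the members' differences was not tested. Slc5a1 stands in the villus list and in the sugar entry list.

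**Figure D1:**
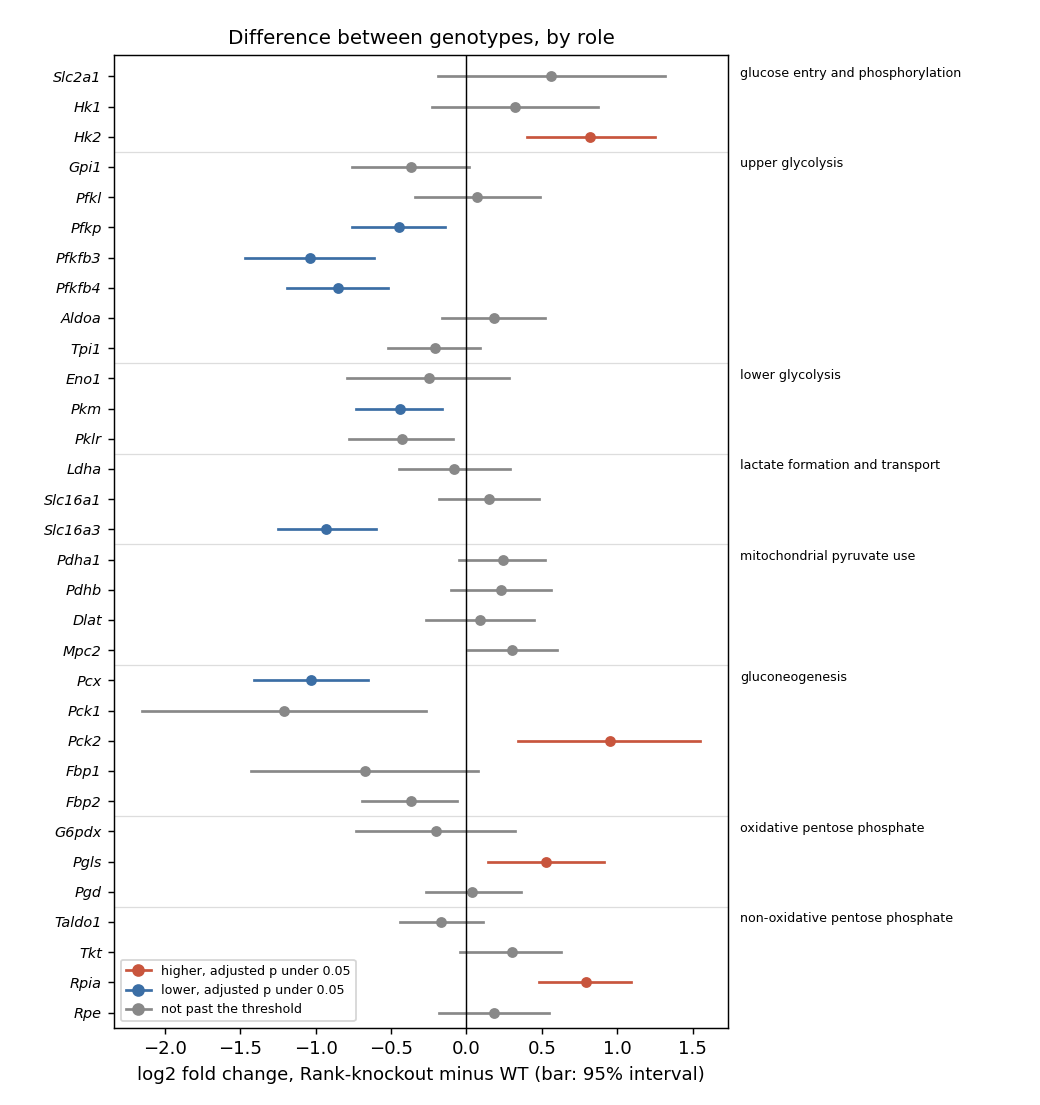
Log2 fold change between Rank-knockout and WT for the 32 tested members, grouped by role. Points are edgeR estimates from 4 libraries of each genotype, bars are 95% intervals, and colour marks the 4 genes that rose and the 6 that fell. Pfkfb3 at -1.04 and Pcx at -1.03 fell most, and Pck1 at -1.21 has the widest interval.

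A group of 6 members passed the threshold in the main test and in each of the 18 alternative treatments of the data, and the bases before their starts are shown here so that the genes behind the firmest differences can be seen. They are Hk2 and Rpia, which rose, and Pfkfb3, Pfkfb4, Slc16a3 and Pcx, which fell. Each line gives the 250 bases upstream of the RefSeq start on GRCm38.p6, on the strand of the gene, with the letters ACGTG, in either orientation, in capitals. ACGTG is the core of the sites that hypoxia-inducible factors bind, and it is also part of the E-box CACGTG. The windows lie at chr6:82774455-82774704, minus strand, for Hk2, chr6:70792176-70792425, minus strand, for Rpia, chr2:11553930-11554179, minus strand, for Pfkfb3, chr9:108991652-108991901, plus strand, for Pfkfb4, chr11:120948817-120949066, plus strand, for Slc16a3, and chr19:4510222-4510471, plus strand, for Pcx. Where a gene had several starts, the first entry is shown, and another annotation may place a start inside a window.
Hk2: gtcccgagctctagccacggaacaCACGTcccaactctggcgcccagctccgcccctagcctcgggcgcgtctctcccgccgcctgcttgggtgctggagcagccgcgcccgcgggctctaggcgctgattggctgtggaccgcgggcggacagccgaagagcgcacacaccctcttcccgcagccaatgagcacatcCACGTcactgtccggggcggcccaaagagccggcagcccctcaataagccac
Rpia: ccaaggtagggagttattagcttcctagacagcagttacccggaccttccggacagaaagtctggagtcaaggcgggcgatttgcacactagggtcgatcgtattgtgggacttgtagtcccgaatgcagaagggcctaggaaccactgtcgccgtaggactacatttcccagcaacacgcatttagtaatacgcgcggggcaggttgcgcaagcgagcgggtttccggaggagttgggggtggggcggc
Pfkfb3: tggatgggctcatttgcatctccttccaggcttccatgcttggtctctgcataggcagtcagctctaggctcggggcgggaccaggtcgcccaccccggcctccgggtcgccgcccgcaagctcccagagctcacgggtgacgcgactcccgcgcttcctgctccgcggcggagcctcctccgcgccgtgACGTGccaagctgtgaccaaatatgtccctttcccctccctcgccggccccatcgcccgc
Pfkfb4: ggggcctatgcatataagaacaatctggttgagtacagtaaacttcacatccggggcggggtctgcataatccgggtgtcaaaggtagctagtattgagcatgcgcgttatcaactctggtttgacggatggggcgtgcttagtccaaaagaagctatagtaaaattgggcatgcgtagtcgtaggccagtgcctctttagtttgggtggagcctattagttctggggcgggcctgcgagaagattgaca
Slc16a3: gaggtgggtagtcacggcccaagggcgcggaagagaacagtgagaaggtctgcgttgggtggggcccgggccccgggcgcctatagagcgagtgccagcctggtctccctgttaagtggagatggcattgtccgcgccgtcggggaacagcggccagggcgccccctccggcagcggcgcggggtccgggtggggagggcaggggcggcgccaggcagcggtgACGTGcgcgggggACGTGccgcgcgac
Pcx: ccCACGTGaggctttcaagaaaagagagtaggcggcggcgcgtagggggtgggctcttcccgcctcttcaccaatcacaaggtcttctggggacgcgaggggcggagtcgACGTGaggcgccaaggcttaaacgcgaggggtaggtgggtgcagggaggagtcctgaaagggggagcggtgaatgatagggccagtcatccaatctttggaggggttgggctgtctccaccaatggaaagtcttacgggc

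All 38 members had at least 1 entry in the RefSeq promoter table, 53 entries in all. ACGTG, read on both strands, stood in 17 of these 53 windows, or 32.1%, against 16.6% of 32851 windows of the same length over all genes. Counted by gene, it stood before 14 of the 38 members, among them 1 of the 4 that rose (Hk2), 4 of the 6 that fell (Pfkfb3, Pkm, Slc16a3 and Pcx) and 6 of the 22 that did not pass. No share by gene over all genes stands beside these counts, and genes with several windows had more chances of a match. CACGTG, which contains ACGTG, stood in 6 of the 53 windows, against 6.02% of all. The GC-rich letters GGGCGG stood in 33 of the 53 windows, or 62.3%, against 32.7% of all. TGACGTCA and TATAAA were each found in 1 member window, before Ldha and Pklr, and TGATGCAA in none. These are letters in a window and say nothing of binding.

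Glucose entry and phosphorylation. The level of Hk2, the inducible hexokinase that commits glucose to the cell, rose 1.77-fold in Rank-knockout. Hk2 (ENSMUSG00000000628, chr6:82725025-82774454) had 44.2, 34.7, 32.5 and 42.3 CPM in the WT libraries and 90.8, 70.7, 47.3 and 59.4 CPM in the Rank-knockout libraries. Every Rank-knockout library lay above every WT library, with means of 38.4 ± 5.67 and 67.0 ± 18.5 CPM (SD, n = 4 each), and the log2 fold change was 0.82 (SE 0.20, adjusted p = 0.00632). Hk1, the housekeeping hexokinase, had 10.9 ± 1.70 CPM in WT against 13.6 ± 4.16 CPM in Rank-knockout (SD, n = 4 each), which did not pass (log2 fold change 0.32, adjusted p = 0.374). Without Rank-knockout replicate 1 the log2 fold change of Hk1 was 0.07. Slc2a1, the glucose transporter GLUT1, was the lowest of the tested members, with 3 to 13 counts in each WT library and 11 to 27 in each Rank-knockout library. Its difference of 0.56 on the log2 scale had a 95% interval from -0.19 to 1.32 that covers no change as well as a doubling.

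Hk2 and Hk1 were minor parts of the hexokinase tags in these libraries. Hkdc1, a further hexokinase that was not among the 38 genes and was picked out after its level was seen, gave 88.7% to 91.5% of all hexokinase tags in WT libraries against 65.3% to 87.5% in Rank-knockout libraries. Its own difference was -0.50 on the log2 scale and did not pass (adjusted p = 0.088). Hk2 gave 6.12% to 8.70% of hexokinase tags in WT against 10.6% to 28.4% in Rank-knockout, so the ranges did not overlap. Within libraries, the log2 ratio of Hk2 to Hk1 was 1.80 in WT against 2.29 in Rank-knockout, a difference of 0.49 (SE 0.19) that did not pass an exact permutation test (two-sided p = 0.057, adjusted p = 0.095).

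Upper glycolysis. Pfkfb3 and Pfkfb4 fell, which encode 2 of the enzymes that make or degrade fructose 2,6-bisphosphate, a strong activator of phosphofructokinase. Of the phosphofructokinases themselves, the platelet-type subunit fell. Pfkfb3 (ENSMUSG00000026773, chr2:11471433-11554077), which mainly makes fructose 2,6-bisphosphate, had 114, 99.8, 126 and 136 CPM in the WT libraries and 78.5, 45.8, 37.5 and 65.6 CPM in the Rank-knockout libraries. The highest Rank-knockout library stayed under the lowest WT library, and the level was 2.06-fold lower (log2 fold change -1.04, SE 0.20, adjusted p = 0.00182). Pfkfb4 (ENSMUSG00000025648, chr9:108991778-109032228), a relative with both kinase and phosphatase activity, had 155, 147, 190 and 208 CPM in WT against 103, 83.0, 84.7 and 114 CPM in Rank-knockout. Its groups did not overlap either, and it was 1.81-fold lower (log2 fold change -0.85, SE 0.16, adjusted p = 0.00124).

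Pfkp (ENSMUSG00000021196, chr13:6579768-6648777) had 242, 246, 220 and 226 CPM in the WT libraries and 134, 191, 160 and 200 CPM in the Rank-knockout libraries. All 4 Rank-knockout values were under all 4 WT values, and the log2 fold change was -0.45 (SE 0.15, adjusted p = 0.0297). This call was lost without WT replicate 1 and without Rank-knockout replicate 1 or 3, and under both scalings named above. Pfkl, the liver-type subunit, had 22.8 ± 2.84 CPM in WT against 24.4 ± 4.37 CPM in Rank-knockout (SD, n = 4 each), a difference of 0.07 (95% interval -0.34 to 0.49). Pfkp gave 89.7% to 91.3% of phosphofructokinase tags in WT against 82.7% to 89.4% in Rank-knockout, while Pfkm, the muscle-type subunit, had 1 to 13 counts in a library and could not be tested. The log2 ratio of Pfkp to Pfkl was 3.29, 3.27, 3.51 and 3.31 in the WT libraries and 2.49, 3.11, 2.37 and 3.23 in the Rank-knockout libraries, a difference of -0.54 (SE 0.22). An exact permutation test, two-sided, gave p = 0.029, the least that the 70 assignments of 4 against 4 libraries allow, and 0.057 after adjustment over the 10 ratios examined. None of these 10 ratios had an adjusted p under 0.05. A ratio could pass only where many of the 10 reached the smallest possible p, so not passing does not show that a ratio was unchanged.

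The other enzymes of the upper part did not pass. Gpi1, glucose phosphate isomerase, had 332 ± 73.3 CPM in WT against 258 ± 58.7 CPM in Rank-knockout (adjusted p = 0.142). Aldoa, the ubiquitous aldolase, had 187 ± 40.5 and 213 ± 23.8 CPM (adjusted p = 0.428), and Tpi1, triose phosphate isomerase, 234 ± 42.2 and 201 ± 14.4 CPM (adjusted p = 0.281; SD, n = 4 each).

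**Figure D2:**
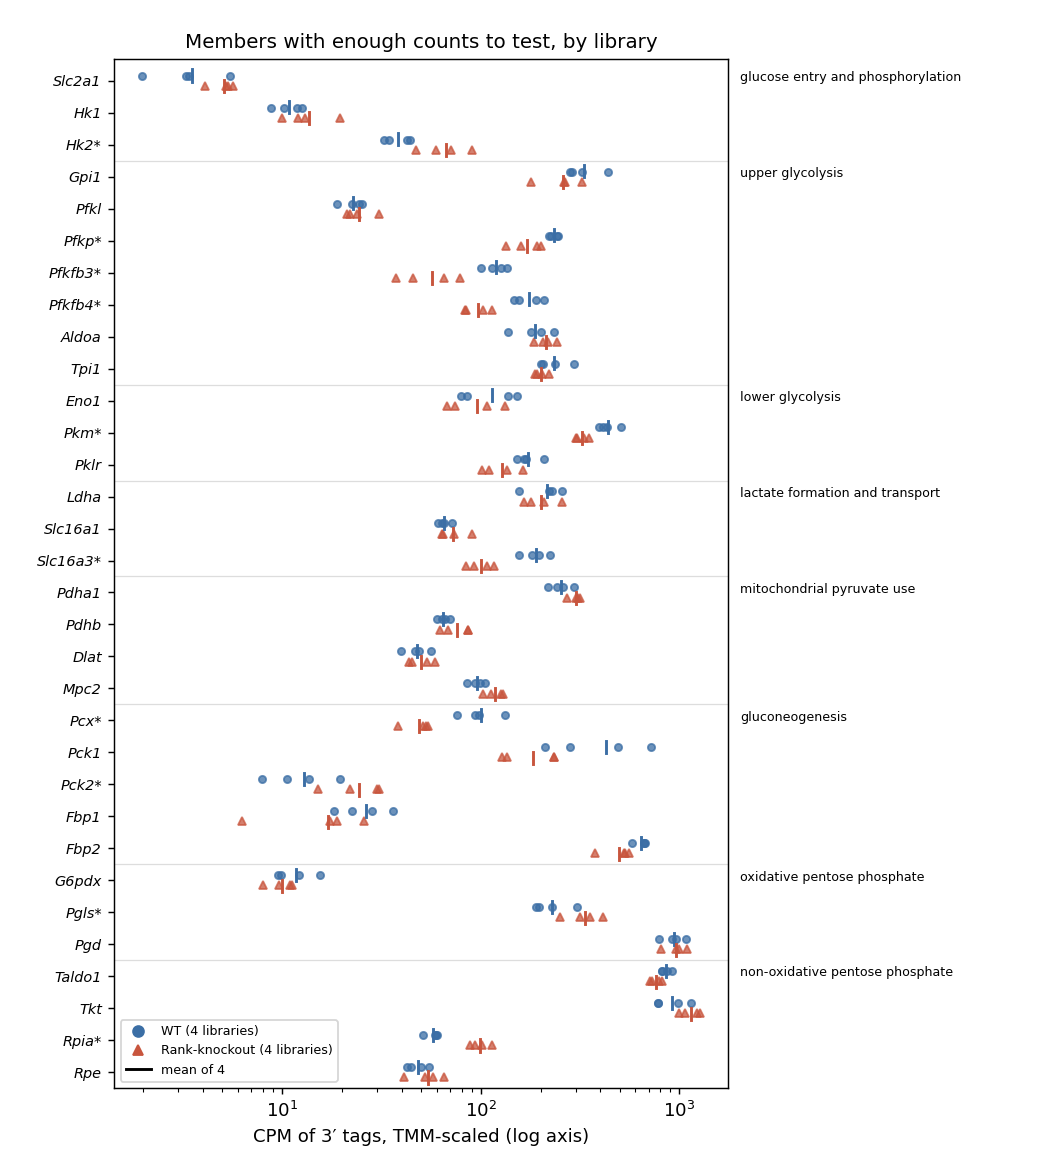
Level of each of the 32 tested members in every library, as CPM of 3′ tags on a log axis, with circles for the 4 WT libraries, triangles for the 4 Rank-knockout libraries and short lines for the group means. Asterisks mark the 10 members past the threshold. Mean WT levels run from 3.52 CPM for Slc2a1 to 937 CPM for Pgd.

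Lower glycolysis. Pkm, the pyruvate kinase of most dividing tissues, fell, and Pklr, the liver and erythrocyte form, was lower by a similar amount without passing. Pkm (ENSMUSG00000032294, chr9:59656368-59679375) had 394, 509, 413 and 434 CPM in the WT libraries and 306, 331, 303 and 349 CPM in the Rank-knockout libraries, again without overlap. Its log2 fold change was -0.44 (SE 0.14, adjusted p = 0.0215), a call that was lost under both scalings named above and when WT replicate 2 or, separately, Rank-knockout replicate 3 was left out. The tags lie at the 3′ end that the M1 and M2 transcripts share, so those isoforms could not be told apart, and 767 exon bases of Pkm are shared on the same strand with the annotated gene Gm49759. Pklr had 165, 152, 207 and 168 CPM in WT against 102, 135, 110 and 164 CPM in Rank-knockout, where 1 Rank-knockout library lay inside the WT range (log2 fold change -0.43, SE 0.17, adjusted p = 0.056). Pklr passed when WT replicate 2 was left out (-0.50, edgeR adjusted p = 0.0345) and when Rank-knockout replicate 4 was (-0.58, edgeR adjusted p = 0.0126). Pkm gave 66.6% to 77.0% of pyruvate kinase tags in WT against 68.0% to 75.1% in Rank-knockout. The log2 ratio of Pkm to Pklr was 1.34 ± 0.31 in WT against 1.36 ± 0.22 in Rank-knockout (SD, n = 4 each), and the exact permutation p was 0.91. Eno1, enolase, ranged from 79.9 to 152 CPM in WT against 67.8 to 132 CPM in Rank-knockout, with broad overlap (adjusted p = 0.466).

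The counts of Gapdh, Pgk1 and Pgam1, which encode 3 consecutive enzymes of the lower part, were too low to test. Gapdh had 2, 12, 4 and 6 counts in the WT libraries and 14, 4, 2 and 16 in the Rank-knockout libraries. The last 300 bases of Gapdh transcripts matched 127 other annotated genes, 125 of them pseudogenes, at 95% identity or more over at least 100 bases, and those copies held 398 counts in all libraries together, against 60 for Gapdh itself. Pgk1 had 1 to 8 counts and Pgam1 0 to 5 counts in a library, and the same search found no copy of either. The rows of these 3 genes were not read as levels of their transcripts, and the cause of their low counts was not tested.

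Lactate formation and transport. Slc16a3, the monocarboxylate transporter MCT4 that exports lactate from glycolytic cells, fell, whereas Ldha and Slc16a1 (MCT1) did not pass. Slc16a3 (ENSMUSG00000025161, chr11:120948480-120960868) had 224, 181, 196 and 155 CPM in the WT libraries and 92.2, 116, 107 and 84.2 CPM in the Rank-knockout libraries. No library of one genotype reached the range of the other, and the level was 1.90-fold lower (log2 fold change -0.93, SE 0.15, adjusted p = 0.000616). It had the smallest adjusted p of the 32 tested members. Slc16a1 had 72.0, 65.4, 63.7 and 60.7 CPM in WT against 64.0, 73.0, 90.1 and 64.3 CPM in Rank-knockout, a difference of 0.15 (95% interval -0.18 to 0.48, adjusted p = 0.50).

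The balance of both transporters within a library did not overlap between the genotypes. Slc16a3 outnumbered Slc16a1 by 2.55 to 3.09 times in WT libraries against 1.18 to 1.59 times in Rank-knockout libraries. The log2 ratio was 1.52 ± 0.13 for WT and 0.46 ± 0.18 for Rank-knockout (SD, n = 4 each), a difference of -1.06 (SE 0.11) with the smallest exact permutation p possible, 0.029 (adjusted p = 0.057). Ldha, the main lactate dehydrogenase subunit of glycolytic tissue, had 215 ± 42.4 CPM in WT against 202 ± 40.4 CPM in Rank-knockout (SD, n = 4 each), a difference of -0.08 with a 95% interval from -0.45 to 0.29. Ldhb, the heart-type subunit, had 0 counts in every library, which allows up to 0.692 to 1.96 CPM before TMM scaling, depending on the library. Ldhb has 1 near-identical annotated copy, a pseudogene with 0 counts, and reads that match both can be lost. The 0 counts therefore do not bound the level of its transcript, and the ratio of Ldhb to Ldha, which was among the 10, cannot be read.

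**Figure D3:**
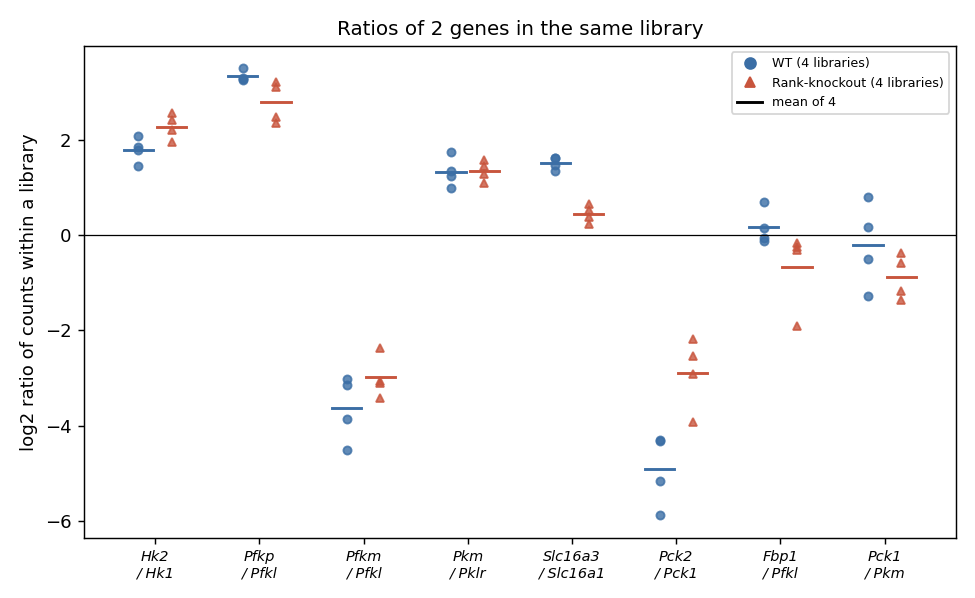
Log2 ratio of the counts of 2 genes within each library for 8 of the 10 ratios, with circles for WT, triangles for Rank-knockout and lines for the mean of 4. The ratio of Slc16a3 to Slc16a1 lies between 1.35 and 1.63 in WT and between 0.24 and 0.66 in Rank-knockout, and the ratio of Pkm to Pklr overlaps throughout.

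Mitochondrial pyruvate use. None of the 4 tested genes for pyruvate entry and oxidation passed with edgeR, DESeq2 or limma-voom, and 1 of them had an unadjusted edgeR p under 0.05. Mpc2, a subunit of the mitochondrial pyruvate carrier, had 95.8 ± 8.35 CPM in WT against 118 ± 11.9 CPM in Rank-knockout (adjusted p = 0.11). Pdha1, Pdhb and Dlat, subunits of the pyruvate dehydrogenase complex, differed by 0.24, 0.23 and 0.09 on the log2 scale (adjusted p = 0.20, 0.276 and 0.725). Their SEs were 0.14, 0.15 and 0.17. Under scaling by library totals Mpc2, Pdha1 and Pdhb passed the threshold in the higher direction, at 0.50, 0.44 and 0.43. Mpc1, the partner of Mpc2, had 2 to 12 counts in a library and was not tested.

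Gluconeogenesis. The carboxylase that opens the route from pyruvate fell, while the mitochondrial phosphoenolpyruvate carboxykinase rose. Pcx (ENSMUSG00000024892, chr19:4510472-4621752), pyruvate carboxylase, which makes oxaloacetate for gluconeogenesis and for the citric acid cycle, had 97.9, 132, 75.9 and 93.1 CPM in the WT libraries and 51.4, 54.0, 38.4 and 52.8 CPM in the Rank-knockout libraries. The groups were apart, and the level was 2.04-fold lower (log2 fold change -1.03, SE 0.18, adjusted p = 0.000868). Pck2 (ENSMUSG00000040618, chr14:55540266-55551242), the mitochondrial carboxykinase, had 13.6, 10.6, 19.6 and 7.92 CPM in WT against 29.9, 22.0, 30.8 and 15.2 CPM in Rank-knockout. One Rank-knockout library lay inside the WT range, and the level was 1.93-fold higher (log2 fold change 0.95, SE 0.29, adjusted p = 0.0211). The call for Pck2 rested on 12 to 142 counts a library and was lost when 1 of 4 libraries was left out (replicates 2 and 4 of WT, 1 and 3 of Rank-knockout), at values from 0.76 to 0.83.

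Pck1, the cytosolic carboxykinase and the classical control point of gluconeogenesis, had widely scattered values, with 281, 210, 719 and 489 CPM in WT against 136, 128, 234 and 233 CPM in Rank-knockout, so that 2 Rank-knockout libraries lay above the lowest WT library. The log2 fold change was -1.21 (SE 0.41, 95% interval -2.15 to -0.27) and the adjusted p 0.0564. It passed with DESeq2 (adjusted p = 0.035) and without WT replicate 1 or 2 (adjusted p = 0.037 and 0.0246). The log2 ratio of Pck2 to Pck1 was -4.33, -4.30, -5.17 and -5.89 in WT against -2.18, -2.53, -2.92 and -3.93 in Rank-knockout, a difference of 2.03 (SE 0.54) without overlap. Pck2 thus gave 1.59% to 4.79% of carboxykinase tags in WT against 6.11% to 18.0% in Rank-knockout. The exact permutation p was 0.029, the smallest possible (adjusted p = 0.057). The ratio of Pck1 to Pkm, which sets a carboxykinase of the reverse route against a kinase of the forward step, overlapped (exact permutation p = 0.29). Pcx, which the reverse route from pyruvate also needs, is not part of this ratio.

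Fbp1 and Fbp2 encode fructose 1,6-bisphosphatase, which reverses the phosphofructokinase step, and Fbp2, known as the muscle form, gave 94.9% to 96.9% of these tags in WT against 95.3% to 98.3% in Rank-knockout. Fbp2 had 663, 665, 578 and 669 CPM in WT against 376, 554, 525 and 533 CPM in Rank-knockout. The groups were apart, but the test did not pass (log2 fold change -0.37, SE 0.15, adjusted p = 0.0689). Fbp1 had 26.3 ± 7.81 CPM in WT against 17.1 ± 8.09 CPM in Rank-knockout (SD, n = 4 each), with overlap (adjusted p = 0.162). The log2 ratio of Fbp1 to Pfkl differed by -0.82 (SE 0.45), from 0.16 ± 0.37 to -0.66 ± 0.83 (SD, n = 4 each), with an exact permutation p of 0.029 (adjusted p = 0.057). Rank-knockout replicate 1 lay far under the others in that ratio, at -1.90 against -0.32 to -0.17, which enlarged the difference. Both genes gave minor shares of the tags of their step, Fbp1 1.65% to 5.15% and Pfkl 7.89% to 15.9% over all libraries. The ratio therefore does not describe the step as a whole, and that of Fbp2 to Pfkp was not examined.

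Pentose phosphate pathway. Rpia, ribose 5-phosphate isomerase, which forms the sugar of nucleotides, rose, and so did Pgls, the lactonase of the oxidative arm. Rpia (ENSMUSG00000053604, chr6:70765720-70792232) had 60.5, 59.3, 58.9 and 51.5 CPM in the WT libraries and 114, 93.8, 102 and 88.1 CPM in the Rank-knockout libraries. The groups were far apart compared with their spread, and the level was 1.73-fold higher (log2 fold change 0.79, SE 0.15, adjusted p = 0.00118). Pgls (ENSMUSG00000031807, chr8:71592176-71601092) had 228, 305, 196 and 189 CPM in WT against 250, 355, 411 and 314 CPM in Rank-knockout. WT replicate 2 lay above 1 Rank-knockout library, and the level was 1.44-fold higher (log2 fold change 0.53, SE 0.18, adjusted p = 0.0372). The call for Pgls was lost when any of WT replicates 1, 3 and 4 or Rank-knockout replicates 2 and 3 was left out, and 776 of its exon bases are shared on the same strand with Fam129c.

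The enzymes on either side of Rpia and Pgls did not pass. G6pdx, glucose 6-phosphate dehydrogenase, which commits glucose to the pathway, was low, with 11.8 ± 2.78 CPM in WT against 9.97 ± 1.45 CPM in Rank-knockout (adjusted p = 0.571). Pgd, the second NADPH-forming enzyme, was the highest of the 38 genes in WT, with 937 ± 122 CPM there and 965 ± 118 CPM in Rank-knockout, a difference of 0.04 with a 95% interval from -0.27 to 0.36. Tkt, transketolase, had 987, 1140, 783 and 782 CPM in WT against 989, 1220, 1270 and 1070 CPM in Rank-knockout (log2 fold change 0.30, adjusted p = 0.165), and passed when scaled by library totals, at 0.49. Taldo1, transaldolase, had 852 ± 48.4 and 760 ± 51.7 CPM (adjusted p = 0.362), and Rpe, which interconverts pentose phosphates, 48.1 ± 5.55 and 54.0 ± 10.1 CPM (adjusted p = 0.449; SD, n = 4 each).

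Other genes of the same routes were taken from a list of 49, of which 32 could be tested. Of these, 3 rose and 14 fell, where 15.8% of all tested genes rose and 14.6% fell. The median log2 fold change of the 32 was -0.45, against -0.02 for the members and 0.02 for all tested genes. The genes that fell with the smallest p were Slc2a2 (GLUT2, -1.09), G6pc, the glucose 6-phosphatase of liver and gut (-1.27), Gpd1, glycerol 3-phosphate dehydrogenase (-0.72), and Slc5a1, the sodium-coupled glucose transporter SGLT1 (-0.96). Their adjusted p values were 0.000367, 0.00165, 0.00192 and 0.00206. The 3 that rose were Pdhx, a structural subunit of the pyruvate dehydrogenase complex (0.68, adjusted p = 0.0096), G6pc3, the ubiquitous glucose 6-phosphatase (0.86, adjusted p = 0.0107), and Got2, mitochondrial aspartate aminotransferase (0.50, adjusted p = 0.036). Sugar entry and fructose use held 9 of these genes, and 5 of its 6 tested genes fell.

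Of all tested genes, 14.6% fell and 15.8% rose. Of 20 transcription regulators of these routes, 17 could be tested, and 3 fell, a share close to that of all tested genes. None rose with edgeR, DESeq2 or limma-voom, and 2 were higher at an unadjusted edgeR p under 0.05. Creb3l3, a regulator of fasting and lipid genes in liver and gut, fell by 1.06 on the log2 scale (adjusted p = 0.00031), Epas1, which encodes HIF-2α, by 0.96 (adjusted p = 0.00202) and Ppargc1a, a coactivator of gluconeogenic genes, by 0.93 (adjusted p = 0.00851). Epas1 had 37.4, 42.5, 29.1 and 27.1 CPM in WT against 17.9, 17.1, 17.4 and 18.6 CPM in Rank-knockout. Hif1a did not pass at -0.37 (SE 0.16, adjusted p = 0.0964), nor did Mlxipl, the carbohydrate response factor ChREBP, at 0.11 (adjusted p = 0.661), or Hnf4a at 0.17 (adjusted p = 0.446). Myc had too few counts to test.

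**Figure D4:**
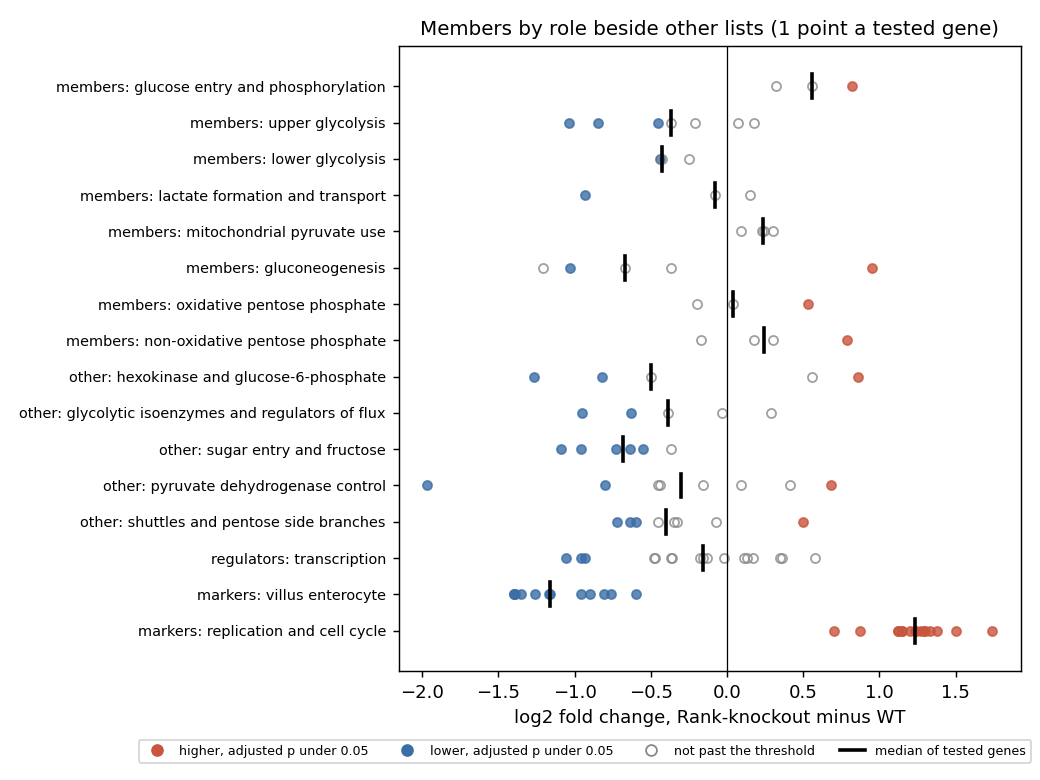
Log2 fold change of each tested gene, 1 point a gene, for the members by role, for the other pathway genes and regulators, and for villus enterocyte and cell cycle markers. Filled points passed the threshold and black bars are medians. Members stand on both sides of 0, while all 12 villus markers lie below it and all 16 cell cycle markers above it.

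Markers of other cells were checked in the same way, beside the 15.8% of all tested genes that rose and the 14.6% that fell. Epithelial identity markers, led by Cdh1 and Epcam, summed to 11600 to 12700 CPM in WT against 9030 to 11400 CPM in Rank-knockout, with 2 of 9 higher and 3 lower. Of 7 Paneth cell markers, 3 rose with edgeR, 4 with DESeq2 and 1 with limma-voom, and 7 were higher at an unadjusted edgeR p under 0.05. Their median log2 fold change was 1.22, and their sum ran from 2140 to 4470 CPM in WT against 2970 to 9350 CPM in Rank-knockout, with overlap. T cell markers summed to 180 to 272 CPM in WT against 120 to 193 CPM in Rank-knockout, with none of 5 tested past the threshold in edgeR or DESeq2 and 1 lower at an unadjusted edgeR p under 0.05, and B and plasma cell markers to 31.8 to 69.4 and 4.01 to 26.1 CPM, with the 1 tested gene lower and Cd79a at 0. Myeloid, stromal, endothelial and erythroid markers each summed to under 20 CPM in every library, with Adgre1 and Cdh5 at 0 in all of them. The part of these cells in the members' differences was not tested.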

How the data were processed

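By the methods of the study, QuantSeq 3′ FWD reads were trimmed (BBDuk), freed of ribosomal, mitochondrial and other abundant sequences (bowtie2), aligned to GRCm38 (STAR) and counted per gene on the sense strand (featureCounts). The deposited values are the authors' raw counts per gene. No molecular identifiers are mentioned, so PCR copies count as reads and floors cover counting error only. Reads that match several genes can be lost, which makes Gapdh and other genes with copies uncertain.

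Of the 54532 gene identifiers, 54495 were found in GENCODE M21, the source of symbols and positions. The test for each gene was edgeR 4.0.16 under R 4.3.3 (filterByExpr, TMM, robust quasi-likelihood F-test, genotype only), tested on simulated data. Ratios used log2 of counts plus 0.5 in each library. Alternatives were RLE factors, scaling to totals with or without the 50 most abundant genes, no filter, a floor of 5 on mean CPM, DESeq2 1.42.0, voom in limma 3.58.1, the replicate number as a block, each library left out, thinning to 1530781 counts, added counts of near-identical copies and, for ratios, a pseudocount of 2.

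The members, lists and tests were chosen with earlier results of these data known. Besides every member, the text names up to 4 other pathway genes in each direction by smallest p, 5 set regulators and up to 2 more in each direction, and up to 2 abundant genes of a marker list. Hkdc1 and the markers at 0 were named after their values were seen. One gene that this rule selects, and the ratio that uses it, are not reported here.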

Additional observations from a re-analysis of the deposited data

Results flagged for a closer look

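Single libraries stood apart from the other 3 of their group in 5 of the 86 sets of 4 values examined, where chance alone gives about 4.3. Pcx had 38.4 CPM in Rank-knockout replicate 3, below 51.4 to 54.0 CPM in the others. Fbp2 had 578 CPM in WT replicate 3, against 663 to 669 CPM, and 376 CPM in Rank-knockout replicate 1, against 525 to 554 CPM. The log2 ratio of Fbp1 to Pfkl was -1.90 in Rank-knockout replicate 1, against -0.32 to -0.17. WT replicate 2 had 4335653 counts in total, against 1530781 to 1616024 in the other WT libraries.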

How the results depend on the processing

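Of the 10 called members, 6 (Hk2, Pfkfb3, Pfkfb4, Slc16a3, Pcx and Rpia) passed in each of the 18 alternatives, and of the 22 not called, 14 stayed so in each alternative that tested them, which were 16 for Slc2a1. With library totals 8 members rose, their median was 0.18, and 2566 genes of all rose and 859 fell, so that 74.9% of calls were higher against 52.0% in the main test. Without the 50 most abundant genes in the library sizes 7 members rose, their median was 0.11, and 68.0% of all calls were higher. Leaving out 1 library gave 2 to 4 members higher, with 2 without WT replicate 4 and 2 without Rank-knockout replicate 3, and 4 to 7 lower. It gave 1020 to 1718 higher genes of all, with 1020 without WT replicate 4.

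Values that changed sign lay near 0 and did not pass in either form. With 1 library left out, Pfkl ran from -0.04 to 0.14 (-0.02 without WT replicate 3), Ldha from -0.22 to 0.00088, Dlat from -0.01 to 0.16, and Pgd from -0.06 to 0.12 (-0.02 without Rank-knockout replicate 4). Ldha was 0.11 and Taldo1 0.03 with library totals, Ldha was 0.05 with the 50 most abundant genes left out, and thinning put Dlat at -0.03 and the difference in the log2 ratio of Pkm to Pklr at -0.0034. Pfkp and Pkm also lost their calls without a filter on low counts, where Fbp1 gained one at -0.64. Fbp2 passed with DESeq2 at -0.39. The cause was not tested.

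Samples that share a replicate number did not deviate together in every pair (correlations 0.0517, 0.153, -0.139 and 0.323, with 2 of 4 libraries closest to their own number). With 4 pairs this check cannot decide whether the numbers pair the samples, and the main test used genotype only. With the replicate block 4 members rose and 8 fell, with Pklr at -0.45 (edgeR adjusted p = 0.037) and Pck1 at -1.11 (edgeR adjusted p = 0.000108) now past the threshold, and 1708 genes of all rose and 1602 fell. The smallest p of the sign-flip test on same-numbered pairs is 0.125. Most WT libraries held fewer counts, which limits the members with few counts, Slc2a1 and Pck2 among them.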
